A study of Mus musculus with 2 samples.

Results

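Plasmacytoid dendritic cells (pDC) were examined in the immune infiltrate of lenvatinib-resistant mouse liver tumors, with 1 scRNA library for lenvatinib alone and 1 for lenvatinib plus palbociclib (combo). They were chosen by raw counts of unique molecular identifiers (UMIs, which count each captured RNA molecule once). A member had at least 2 UMIs of Siglech, at least 1 of Bst2, at most 1 of Cd3d, Cd3e and Cd3g together, at most 1 of Cd79a and under 10 of C1qa, C1qb and C1qc together. Barcodes with over 6000 genes or over 25% mitochondrial UMIs had been removed. This left 626 pDC of 25814 cells, 316 of 14201 under lenvatinib and 310 of 11613 under combo.

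The tumors had been induced in male C57BL/6J mice of 6 to 8 weeks by tail vein injection of plasmids that carry human MYC, a guide RNA against Trp53 and the Sleeping Beauty transposase, so both groups carry both alterations. Both groups received lenvatinib at 30 mg/kg for 25 days from day 12 after injection, and then lenvatinib at 30 mg/kg alone or with palbociclib at 100 mg/kg. Lenvatinib inhibits VEGF, FGF, PDGF, KIT and RET receptor kinases, and palbociclib inhibits CDK4 and CDK6. Live cells positive for CD45, the product of Ptprc, were sorted before capture of RNA 3′ ends. Ptprc was present in pDC at 1326 CPM (counts per 1000000 UMIs of the summed cells) under lenvatinib and 965 under combo. The tumors arise from transfected hepatocytes in an otherwise intact host, and the number of mice behind each library is not given in the sources used here. With 1 library per treatment, differences between libraries and between treatments cannot be told apart, no p-value was computed, and the intervals below cover counting error only.

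pDC are the dendritic cells specialised in making type I interferon. They sense nucleic acids in endosomes through TLR7 and TLR9, which signal through IRF7. Their identity depends on the E protein TCF4 (E2-2), which acts with SPIB, RUNX2, BCL11A and IRF8. SIGLECH is a surface lectin of mouse pDC. BST2 (tetherin, PDCA-1) is a pDC surface marker in the resting state that other cells gain under interferon. In tumors, pDC are known both as interferon producers and as cells that induce tolerance.

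Promoter sequence is shown for genes on which the results turn, because the results below concern genes of pDC identity and interferon-stimulated genes, and each group has a known class of binding motif. TCF4 binds E-boxes, and interferon-stimulated genes are bound by IRF factors. Both strands of the RefSeq promoters (GRCm38.p6, 250 bases before to 50 after the start) were searched for the E-boxes CAGCTG and CACCTG and for an interferon response motif, GAAA followed after any 2 bases by GAAA. Each sequence is 30 bases, 5′ to 3′ on the strand of the gene, with the match in capitals, and CAGGTG is CACCTG read on the opposite strand. Siglech lies at chr7:55768152-55768181, Ccr9 at chr9:123767114-123767143 and Klk1 at chr7:44225261-44225290, all on the plus strand. Isg15 lies at chr4:156200871-156200900 and Bst2 at chr8:71537583-71537612, both on the minus strand, and Slfn5 lies at chr11:82951937-82951966 on the plus strand.
Siglech: gaagacttgggcCACCTGctgtccctagtt
Ccr9: tagaatctgcagCAGGTGgctccccaccct
Klk1: cccacaggagagCAGGTGcaacagggccct
Isg15: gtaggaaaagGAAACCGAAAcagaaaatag
Bst2: ggcattccagGAAAATGAAActgaaaggct
Slfn5: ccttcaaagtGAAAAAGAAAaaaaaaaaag
An E-box of either form was present in the promoter of 11 of the 19 pDC identity genes with a promoter entry (57.9%), against 30.8% of 2506 readable genes of pDC (mean of at least 50 CPM and at least 20 UMIs) and 35.9% of all 27025 promoters. The interferon response motif was present in 14 of 24 interferon-stimulated genes (58.3%), in 3 of the 19 identity genes, and in 3.99% of all promoters. Bst2 and Isg15 each hold further, overlapping matches. The promoters of Bst2 and Slfn5 also hold an E-box, CACCTG and CAGCTG, so these genes carry both classes of motif. A match describes the letters in this window and is not evidence of binding.

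The share of pDC was 2.23% of all filtered CD45+ cells under lenvatinib (exact Clopper-Pearson 95% interval, 1.99 to 2.48) and 2.67% under combo (2.38 to 2.98). The ratio of combo to lenvatinib was 1.20, and it ran from 0.961 to 1.498 when the ends of the intervals were set against each other. The exact conditional binomial interval of the ratio, added after the values were seen, was 1.02 to 1.41. The direction turned with the cells in the denominator. Without T and NK cells, the share was 7.82% under lenvatinib and 6.55% under combo, a ratio of 0.838, and without neutrophils it was 2.32% and 3.17%, a ratio of 1.37. At least 3 or at least 5 Siglech UMIs per member gave ratios of 1.29 and 1.31, members with at most 20 UMIs of the neutrophil genes S100a8 and S100a9 gave 1.07, and cells thinned to 2000 UMIs gave 1.12. A share of sorted cells does not give the number of pDC in a tumor.

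Members under lenvatinib held a median of 8796 UMIs (711 to 34490) and 2851984 in all, and members under combo held a median of 10474.5 (2145 to 37331) and 3486841 in all. The median number of genes was 2847.5 and 3088, and the median mitochondrial share was 5.28% and 4.76%. Ribosomal protein genes took 18.9% of the UMIs of pDC under lenvatinib and 21.4% under combo. Scrublet called 17 members under lenvatinib and 13 under combo as doublets, and these were kept. The libraries shared 49 barcodes, of which 2 were members under combo and 0 were members under lenvatinib.

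The label was checked against genes that the rule had not used. Of 8 such genes (Tcf4, Runx2, Ccr9, Ly6d, Cox6a2, Atp1b1, Spib and Klk1), a member held a median of 7 under lenvatinib and 8 under combo. At least 4 were present in 289 members under lenvatinib (91.5%) and in 301 under combo (97.1%). When cells were instead gated on at least 4 of these genes without use of Siglech, 362 and 351 cells passed, of which 79.8% and 85.8% were members. RNA of other cells was also present. At least 2 of 5 NK genes (Ncr1, Klrb1c, Klre1, Klra8 and Prf1) had a UMI in 30 members under lenvatinib (9.49%) and in 7 under combo (2.26%). More than 20 UMIs of S100a8 and S100a9, which encode calprotectin of neutrophils, were present in 6 members under lenvatinib (1.90%) and in 40 under combo (12.9%).

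Siglech had a median of 15 UMIs per member under lenvatinib (2 to 46) and 17 under combo (2 to 61). Cells at the threshold of 2 UMIs numbered 29 under lenvatinib and 8 under combo, and cells just outside it, with 1 UMI and all other conditions met, numbered 50 and 43. Ccr9 had a UMI in 34.5% of cells with 2 Siglech UMIs under lenvatinib and in 8% of those with 1, and in 50% and 20.9% under combo. Tcf4 had a UMI in 82.8% and 62% under lenvatinib, and in 100% and 60.5% under combo. Nkg7, a granule gene of NK and T cells, had a UMI in 44.8% of cells with 2 Siglech UMIs and 58% of those with 1 under lenvatinib, and in 37.5% and 51.2% under combo. The median number of the 8 genes was 3 just inside the threshold and 2 just outside it in both libraries.

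Genes of pDC identity differed in both directions between lenvatinib and combo, mostly by less than 2-fold. The interval of the ratio lay below 1 for 12 of the 24 genes (50%), against 32.3% of all readable genes, and above 1 for 8 (33.3%), against 21.6%. The list holds Siglech and Bst2, by which the cells were chosen, and Siglech (0.876, 0.843 to 0.910) is among the 12. An interval also clears 1 more easily at a higher count, and the genes were not matched for level. These counts are therefore a description. For the transcription factors, Tcf4 was at 2802 CPM under lenvatinib and 2112 under combo, Runx2 at 1319 and 793, Bcl11a at 657 and 431, Irf8 at 3248 and 2993, and Spib at 219 and 221. The ratio of combo to lenvatinib was 0.601 for Runx2 (95% interval 0.572 to 0.631), and 0.593 in all other cells of the same libraries. Tcf4 had a ratio of 0.754 in pDC and 0.792 in all other cells. Irf8 had a ratio of 0.921 in pDC and 0.639 elsewhere, and Spib one of 1.01 and 0.697. Lower readings of Tcf4 and Runx2 under combo were thus also present in the remaining immune cells.

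Among surface and secreted products of pDC, Ccr9, the gut-homing chemokine receptor, was at 1071 CPM under lenvatinib and 1054 under combo, and Cd300c, an activating receptor, at 198 and 253. Klk1, a tissue kallikrein, was at 485 CPM under lenvatinib and 780 under combo, a ratio of 1.61 (1.51 to 1.72), with 4.66 and 5.69 CPM in all other cells. Ly6d, a GPI-anchored protein of lymphoid progenitors, was at 1933 and 2713 CPM, a ratio of 1.403 in pDC and 1.55 in all other cells. Rnase6 was at 944 and 1270 CPM. Ly6c2, a GPI-anchored Ly6 protein, was the exception among the 24 identity genes, as the only member at least 2-fold lower under combo, against 0.796% of all readable genes, and 0 were at least 2-fold higher, against 0.701%. The median log2 ratio of the 24 genes was -0.08, and that of all 3140 genes at readable levels was -0.06. Members of the Ly6 and kallikrein families share sequence, so that counts of Ly6a, Ly6c2, Ly6d, Klk1 and Klk1b27 could be split between paralogs.

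**Figure D1:**
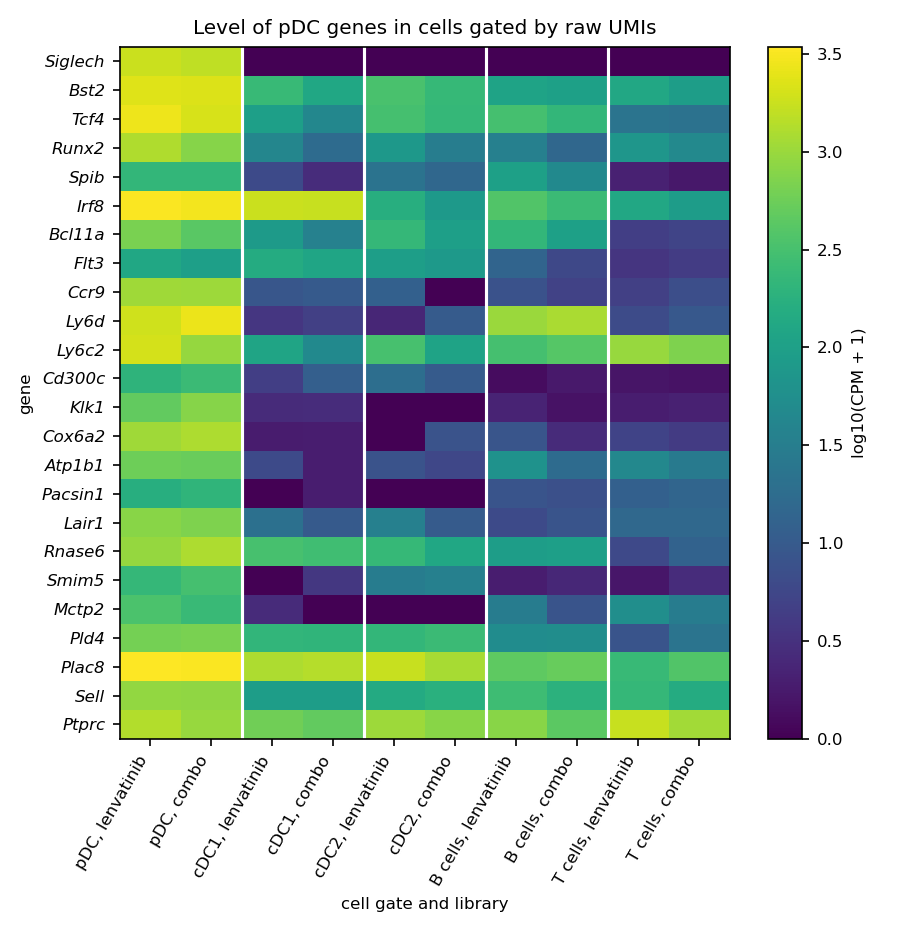
Heat map of 24 pDC identity genes (rows) as log10(CPM + 1) in pDC, cDC1, cDC2, B and T cells of each library (columns), where all other cell gates required 0 Siglech UMIs. Ccr9, Cox6a2, Klk1 and Smim5 are high in both pDC columns, whereas Irf8 is also high in cDC1, and Ly6d in B cells.

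The share of T cells with a UMI differed between these genes. Ccr9 had a UMI in 88.0% of pDC under lenvatinib and 95.5% under combo, and after each cell was thinned to 2000 UMIs in 73.6% and 74.5%. In T cells the thinned shares of Ccr9 were 0.749% and 1.14%. Klk1, Cox6a2 and Smim5 were in under 1% of thinned T cells in both libraries, whereas Ly6c2 was in 53.8% and 44.8%, Plac8 in 25.0% and 27.0%, and Bst2 in 20.04% and 14.7%. Ly6c2 was in 15.3% and 15.0% of thinned B cells. The median depth of T cells was 6304 UMIs under lenvatinib and 5804 under combo. Next to Siglech, the genes that stood highest in pDC over all other cells, by the smaller of the folds in the libraries, included Sh3bgr (112-fold), Klk1 (104-fold), Havcr1 (101-fold), Cdh5 (95.6-fold), Cox6a2 (93.6-fold), Cd300c (88.7-fold) and Ccr9 (88.7-fold). HAVCR1 (TIM-1) is a phosphatidylserine receptor, CDH5 is VE-cadherin, best known from endothelium, and COX6A2 is the muscle form of a cytochrome c oxidase subunit. Further genes with muscle names were present in the same ranking, with Pgam2 (phosphoglycerate mutase of muscle) at 49.8 and 53.3 CPM and Atp2a1 (the calcium pump SERCA1) at 114 and 147 CPM. Cdh5 was at 107 and 100 CPM and Havcr1 at 70.1 and 59.7. These folds follow from the choice of cells and are a description.

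Lineage genes shared with lymphocytes were also detected. Dntt, the terminal transferase of antigen receptor rearrangement, was at 115 CPM under lenvatinib and 117 under combo, against 2.72 and 4.41 in all other cells. Iglc3 was at 410 and 525 CPM, Ighm at 981 and 786, and the B-cell adaptor Blnk at 311 and 271. The rule limited Cd79a to 1 UMI, and the B-cell markers as a list of 7 genes summed to 42.4 CPM under lenvatinib and 50.5 under combo. The 14 lymphoid rearrangement and B-lineage genes summed to 2243 and 2237 CPM, a ratio of 0.998 (0.965 to 1.03). Of 6 readable genes 0 were at least 2-fold higher or lower, against 1.5% of all readable genes.

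The comparison of combo with lenvatinib was made on summed UMIs of pDC over genes with a mean of at least 50 CPM and at least 20 UMIs over both libraries. Of 3140 such genes, 22 were at least 2-fold higher under combo (0.701%) and 25 were at least 2-fold lower (0.796%), and 2851 (90.8%) were within 1.5-fold. Of the 22 higher genes, 18 were also at least 2-fold higher in all other cells, while 7 of the 25 lower genes were also at least 2-fold lower there. Some of the 25 fell just short of that cut there, such as Ifi27l2a (0.514) and Ccnt2 (0.519). Of the 25, only Gzmb, Ly6a, Slfn5 and Klf4 were not lower in all other cells (1.18, 1.08, 1.05 and 1.01). In members with at most 20 UMIs of S100a8 and S100a9 together, 11 genes were at least 2-fold higher and 31 lower, and in members with at most 1 of the 5 NK genes, 22 and 19. The genes furthest from equality included markers of neutrophils and NK cells, and their source was not tested. Retnlg was at 8.06 CPM under lenvatinib and 355 under combo, and Lcn2 at 14.4 and 362. Gzma was at 317 and 37.6 CPM, and Nkg7 at 128 and 53.3.

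**Figure D2:**
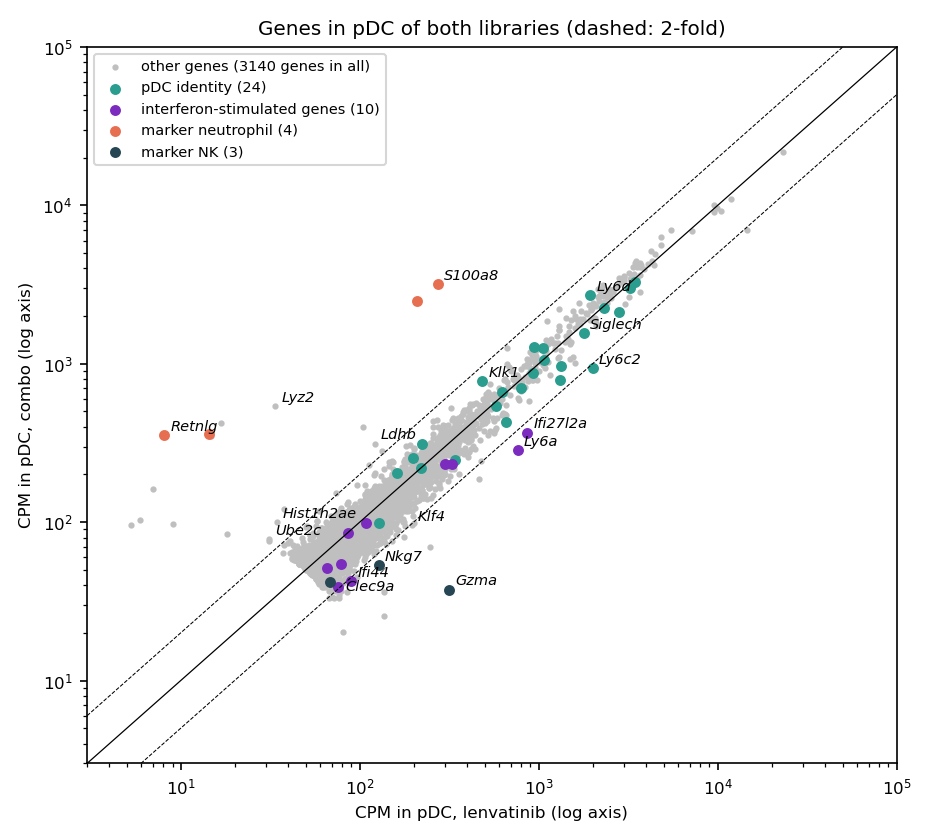
CPM of genes in pDC under lenvatinib (x axis) and combo (y axis), both log axes, with 1 point per gene for the 3140 readable genes, the solid line at equality and dashed lines at 2-fold. Neutrophil genes lie far above the line and NK genes below it, whereas pDC identity genes lie along it apart from Ly6c2.

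The neutrophil list of 8 genes summed to 534 CPM in pDC under lenvatinib and 6474 under combo, a ratio of 12.1, and the ratio was 12.8 in T cells. S100a8, its most abundant gene in pDC, had a UMI in 54.4% of members under lenvatinib and 99.03% under combo, and in 54.2% and 96.9% of T cells. The 10 members with the most S100a8 and S100a9 held 80.3% of these UMIs under combo, and the median member held 12. Ly6g, which defines neutrophils, had 0 UMIs in pDC under lenvatinib and 22 under combo. The NK list of 8 genes summed to 682 and 159 CPM, a ratio of 0.234, and to a ratio of 0.569 in all other cells. No gene of the list was at 0 in either library. The part of these cells in the other differences was not tested beyond leaving out the members that hold most of this RNA.

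Among other lists of cell types in pDC, the T-cell list summed to 328 CPM under lenvatinib and 290 under combo, the plasma-cell list to 371 and 321, and the monocyte and macrophage list to 312 and 761, with Lyz2 at 33.7 and 537. The cDC1 list summed to 200 and 142 CPM and the cDC2 list to 948 and 885, of which Cd7 held 421 and 453. The lists of mature dendritic cells, basophils and mast cells, hepatocytes and tumor, and erythrocytes each summed to under 25 CPM in both libraries. Xcr1, which defines cDC1, was at 1.05 and 2.01 CPM.

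Ly6a and Ly6c2, neighbors in the Ly6 cluster of chromosome 15, were lower in pDC under combo. Ly6a (Sca-1; mm10 chr15:74994877-74998031) encodes a GPI-anchored protein that interferon induces. Its level in pDC was 765 CPM (733 to 798) for lenvatinib and 286 CPM (268 to 304) for combo, a ratio of 0.374 (0.346 to 0.403). In all other cells, Ly6a was at 147 and 159 CPM, a ratio of 1.08. The ratio was 1.15 in T cells and 1.92 in B cells, and it was 0.251 in cDC1. Per member, Ly6a ran from 0 to 54.5 UMIs per 10000 with a median of 5.28 under lenvatinib, and from 0 to 32.7 with a median of 0.713 under combo, so the ranges overlapped. A UMI was present in 78.2% of members under lenvatinib and in 52.9% under combo, and after thinning in 59.7% and 27.7%, against 23.8% and 27.5% of T cells, 30.4% and 39.0% of B cells, and 6.56% and 3.92% of cDC1. Across the other settings tried, the log2 ratio of Ly6a ran from -1.50 to -1.30.

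The lower level of Ly6a was present at each Siglech level. Ly6a had 607 CPM for lenvatinib and 226 CPM for combo in members with 5 to 9 Siglech UMIs. The level was 890 and 334 CPM in members with 10 to 19 Siglech UMIs, and 888 and 286 in those with 20 or more. Ly6c2 (mm10 chr15:75108158-75111970) had 2000 CPM (1949 to 2053) for lenvatinib and 937 CPM (905 to 970) for combo, a ratio of 0.468, with 0.407 in cDC1, 0.347 in cDC2, 0.735 in T cells, 1.31 in B cells and 0.866 in all other cells. The median member held 12.5 UMIs per 10000 (0 to 130.5) for lenvatinib and 6.17 (0 to 56.6) for combo. Members with a Ly6a UMI also had more Ly6c2, at 2375 CPM against 1135 without Ly6a under lenvatinib and 1162 against 652 under combo, among members with few NK genes. They were also deeper, with a median of 8878 against 7046 UMIs and 11172 against 9922.

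**Figure D3:**
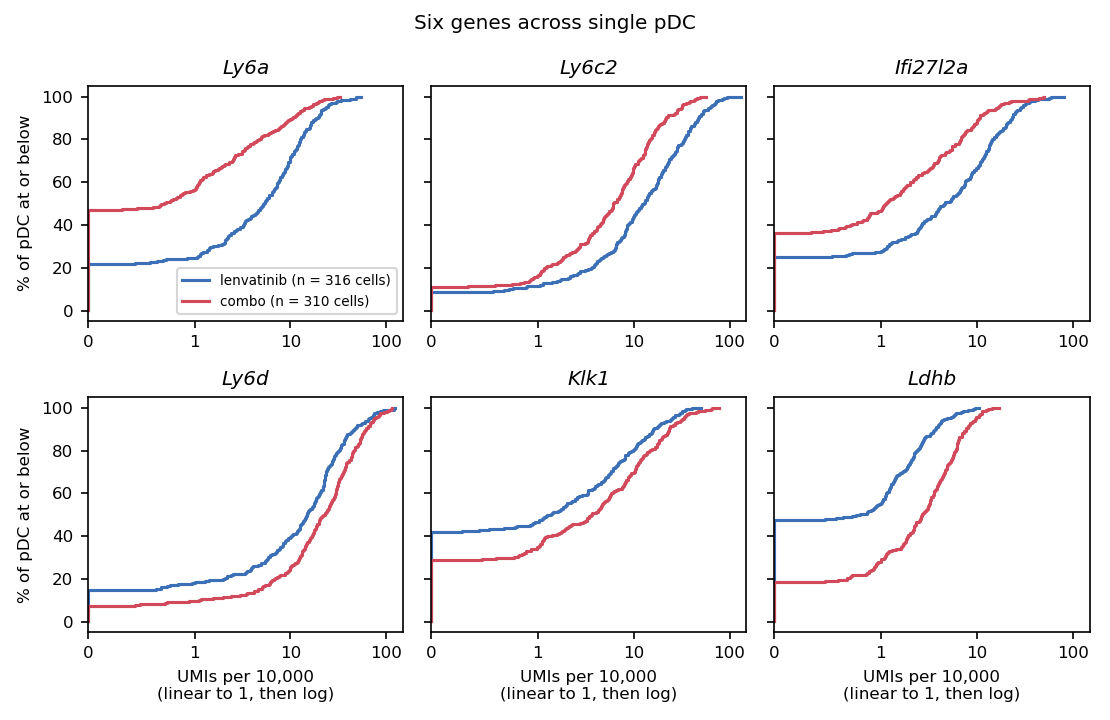
Cumulative share of pDC (y axis, percent of cells) at or below each level of 6 genes (x axis, UMIs per 10000, linear to 1 and then log) in the lenvatinib (316 cells) and combo (310 cells) libraries. The combo curve lies to the left for Ly6a, Ly6c2 and Ifi27l2a and to the right for Ly6d, Klk1 and Ldhb, and the ranges of the libraries overlap for all 6 genes.

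Interferon-stimulated genes as a group were lower in pDC under combo. Of 34 genes in the list, 32 were in the files (Mx1 and Mx2 were not). They summed to 3212 CPM under lenvatinib and 1826 under combo, a ratio of 0.569 (0.551 to 0.587). Of the 32 genes, 26 read lower and 6 higher, and the interval of the ratio lay below 1 for 15 and above 1 for 1. All 10 readable members read lower, against 56.5% of all readable genes, and the interval lay below 1 for 8 of the 10, against 32.3%. The genes behind these interval shares were not matched for level. Of the 10, 3 were at least 2-fold lower (Ly6a, Ifi27l2a and Ifi44), against 0.796% of all readable genes. Their median log2 ratio was -0.52, against -0.06 over all readable genes. The sum had a ratio of 0.476 in cDC1, 0.834 in cDC2, 0.707 in T cells, 1.11 in B cells and 0.751 in all other cells.

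Ly6a and Ifi27l2a held much of this sum. Ifi27l2a, an interferon-induced gene of the IFI27 family, was at 862 CPM under lenvatinib and 368 under combo, a ratio of 0.427, and of 0.514 in all other cells. The median member held 4.61 UMIs per 10000 (0 to 81.4) for lenvatinib and 1.13 (0 to 49.9) for combo. Without these genes the sum was 1586 and 1172 CPM, a ratio of 0.739 (0.709 to 0.772). The same sum had a ratio of 0.582 in cDC1, 1.06 in cDC2 (0.965 to 1.17), 0.736 in T cells, 0.847 in B cells (0.801 to 0.895) and 0.787 in all other cells, so that the directions in cDC2 and B cells turned on these 2 genes. Isg15, a ubiquitin-like modifier, was at 75.4 and 39.0 CPM, a ratio of 0.517. Ifi44 was at 89.4 and 42.4 CPM, and its ratio of 0.475 in pDC stood beside 0.246 in all other cells. Ifi35 (86.3 and 85.5 CPM) and Ifi47 (109 and 99.5 CPM) were nearly equal. Slfn5, a Schlafen gene outside the list whose promoter holds the interferon motif shown above, was at 177 and 80.3 CPM. Its ratio was 0.454 in pDC, 0.615 in cDC1, 1.12 in cDC2, 0.669 in T cells and 1.05 in all other cells. Slfn5 is 1 of the 12 lower genes named by rule, of which 7 had a promoter entry. The motif was in 2 of these 7, Slfn5 and Ccnt2, against 4.47% of readable genes with an entry.

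**Figure D4:**
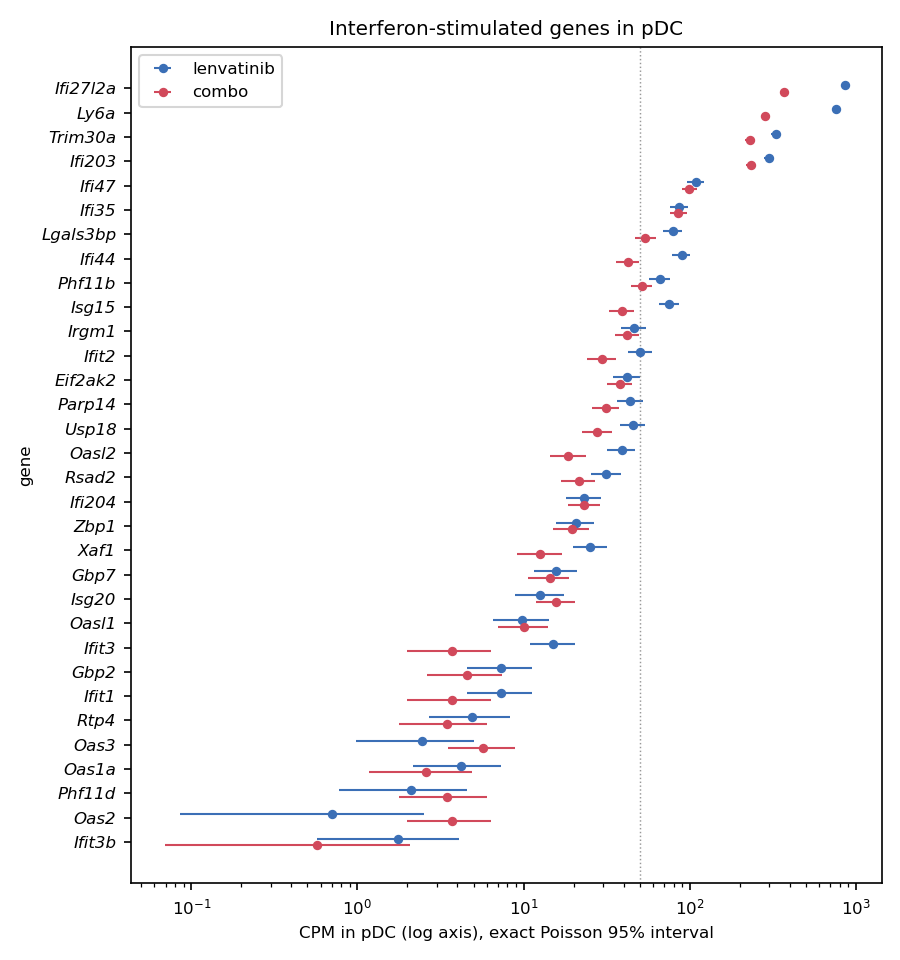
Level of 32 interferon-stimulated genes in pDC, as CPM on a log axis with exact Poisson 95% intervals, under lenvatinib and combo, sorted by mean level, with a dotted line at 50 CPM. Ifi27l2a and Ly6a are the highest genes, and 26 of the 32 read lower under combo.

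Interferon ligands were nearly absent. No UMI of 15 interferon alpha and beta genes was present in pDC under lenvatinib, which allows up to 1.29 CPM (exact Poisson upper limit). Under combo there were 16 UMIs (4.59 CPM), in 4 of 310 members, and 1 member held 12 of them. All 20 type I and III ligand genes summed to 0.701 and 7.74 CPM. Genes of sensing read close to equal, with Tlr7 at 129 and 110 CPM, the chaperone Unc93b1 at 555 and 602, and Irf7 at 164 and 173. Tlr9 had 20 and 19 UMIs in all, so its level could not be compared. The 18 measured nucleic acid sensing genes summed to 1465 and 1429 CPM, a ratio of 0.976 (0.936 to 1.02). Of 8 readable genes in that list 0 were 2-fold apart, against 1.5% of all readable genes. The 12 genes of interferon receptors and signaling summed to 1668 and 1483 CPM, a ratio of 0.889, with Ifnar1 at 214 and 164 and Ifnar2 at 405 and 428.

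Cytokine genes differed in direction. Ccl4, an inflammatory chemokine, was at 1291 CPM under lenvatinib and 1725 under combo, a ratio of 1.34 (1.28 to 1.39), and 0.745 in all other cells. Its median per member was 4.62 and 4.69 UMIs per 10000, and the 10 highest members held 26.9% and 33.3% of its UMIs. Il12a, the p35 subunit of IL-12, was at 39.97 and 74.0 CPM, a ratio of 1.85 (1.48 to 2.33), with 2.13 in all other cells. A UMI of Il12a was present in 22.2% and 44.8% of members, and after thinning in 5.94% and 15.8%, against 0.0588% and 0.112% of T cells. Thinned B cells held Il12a in 4.18% and 4.03%, and its ratio in B cells was 0.741 (0.521 to 1.05). Ccl5 was at 476 and 244 CPM and Gzmb at 80.6 and 20.4. The ratio of Gzmb was 0.252 in pDC, 2.03 in T cells and 1.18 in all other cells. The 13 genes summed to 2221 and 2399 CPM, a ratio of 1.08, with 0 of 6 readable genes at least 2-fold higher and 1 lower (Gzmb), against 0.701% and 0.796% of all readable genes. In members with at most 1 of the 5 NK genes, the log2 ratio of Gzmb was -0.41 in place of -1.99, within 2-fold, whereas Gzma (-1.85) and Il2rb (-1.86) were still past it.

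Antigen presentation genes of class II were slightly higher under combo. The 11 genes summed to 6642 CPM under lenvatinib and 7354 under combo, a ratio of 1.11 (1.09 to 1.13), against 1.51 in T cells, 1.36 in B cells and 1.44 in all other cells. Cd74, the invariant chain, was at 2927 and 3296 CPM, and H2-Eb1 at 497 and 601. Of the 8 readable genes, 0 were at least 2-fold higher or lower, against 0.701% and 0.796% of all readable genes. The pDC level of the list lay far below the 30168 and 34344 CPM of cDC1. The 18 genes of class I presentation had a ratio of 0.971 and the 12 of costimulation and tolerance 1.02. The 21 of secretory pathway and unfolded protein response had 0.982, and the 14 of homing and adhesion 0.968. Of the 15, 2, 19 and 11 readable genes of these lists, in that order, 0 were 2-fold apart, against 1.5% of all readable genes. With so few genes, 0 is near that share.

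Genes shared with conventional and transitional dendritic cells were lower under combo. The list of 15 summed to 939 CPM under lenvatinib and 612 under combo, a ratio of 0.652 (0.616 to 0.690), and 0.881 in all other cells. All 6 readable members read lower, against 56.5% of all readable genes, with a median log2 ratio of -0.80, and 2 were at least 2-fold lower, against 0.796%. The 2 were Clec9a, a receptor for F-actin of dead cells, at 76.4 and 34.7 CPM (0.454), and the transcription factor Klf4 at 195 and 96.1 CPM (0.492 in pDC, 0.398 in cDC1, 0.610 in cDC2 and 1.01 in all other cells together). Id2, the inhibitor of E proteins, was at 126 and 80.9 CPM, and Itgax, which encodes CD11c, at 121 and 62.5. The NK list was lower too, with a ratio of 0.234 in pDC. Among members with few NK genes, Id2 was at 96.2 CPM with Clec9a and 88.3 without under lenvatinib, and at 81.0 and 76.5 under combo. Itgax was at 121 and 109 CPM in these members under lenvatinib, and at 61.3 and 64.8 under combo. Cd209a was at 123 and 117 CPM. Across the other settings tried, the log2 ratio ran from -1.30 to -1.08 for Clec9a and from -1.28 to -0.81 for Klf4.

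Ldhb, Tpi1, Klk1b27, Phgdh and Cd38 read higher in pDC under combo, and Tpi1 and Phgdh were below the other cells under lenvatinib, with 141 and 62.2 CPM there. Ldhb, the B subunit of lactate dehydrogenase, had 121 CPM (109 to 135) for lenvatinib and 313 CPM (295 to 332) for combo, a ratio of 2.58 (2.29 to 2.92). In all other cells it was at 4.56 and 9.19 CPM, a ratio of 2.02. The median member held 0.806 UMIs per 10000 (0 to 10.5) for lenvatinib and 2.69 (0 to 17.0) for combo. A UMI was present in 52.5% and 81.6% of members, and after thinning in 20.8% and 45.2%, against 1.03% and 2.09% of T cells. Tpi1, a glycolytic isomerase, was at 113 and 230 CPM, a ratio of 2.03 and 1.51 elsewhere. Klk1b27, a kallikrein of the same cluster as Klk1, was at 73.3 and 152 CPM, a ratio of 2.08. Phgdh, of serine synthesis, was at 40.7 and 76 CPM, a ratio of 1.87 and 0.846 elsewhere. Cd38 was at 37.9 and 71.7 CPM.

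Genes of the cell cycle were examined because palbociclib targets CDK4 and CDK6. Ccnd1, which encodes cyclin D1, was at 933 CPM in pDC under lenvatinib and 788 under combo, against 28.6 and 29.6 in all other cells, and in cDC1 it was at 440 and 312. Ccnd1 had a UMI in 91.8% and 97.4% of pDC, and after thinning in 71.0% and 69.4% of pDC and in 0.735% and 1.31% of T cells. Cdk4 was at 66.3 and 76.6 CPM, Cdk6 at 81.0 and 51.3, and the inhibitor Cdkn2d at 248 and 317. The 20 pathway genes summed to 2124 and 1947 CPM, a ratio of 0.917 (0.885 to 0.949). Of 7 readable genes in that list 0 were 2-fold apart, against 1.5% of all readable genes.

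A UMI of any of 10 mitosis genes was present in 87 pDC under lenvatinib (27.5%) and in 54 under combo (17.4%). Few pDC of either library held at least 2 of these genes. After thinning, at least 2 of 10 mitosis genes had a UMI in 12 of 303 pDC under lenvatinib (3.96%, exact interval 2.06 to 6.82) and in 9 of 310 under combo (2.90%, 1.34 to 5.44), so the intervals overlapped. Unthinned, the shares were 6.96% and 5.48%. The thinned share was 24.6% and 21.6% in cDC1, 15.0% (9 of 60) and 0% (0 of 31) in cDC2, and 5.45% and 0.805% in B cells. It was 8.93% and 2.52% in T cells, and 7.81% and 2.62% in all other cells. The 20 S phase and mitosis genes summed to 661 and 614 CPM in pDC, a ratio of 0.929. The ratio of this list was 0.924 in cDC1, 0.235 in cDC2, 0.316 in B cells, 0.494 in T cells and 0.501 in all other cells. The 10 mitosis genes alone summed to 227 and 287 CPM, a ratio of 1.27 (1.15 to 1.40). The 5 highest members held 63.8% and 67.3% of their UMIs. Without those members the sums were 84.7 and 96.9 CPM. The ratio of the 10 genes was 0.924 in cDC1, 0.0935 in cDC2, 0.205 in B cells, 0.316 in T cells and 0.375 in all other cells. The difference between these ratios was not tested. Hist1h2ae, a core histone, was at 34.4 and 100 CPM, and Ube2c, a ubiquitin enzyme of mitosis, at 31.2 and 78.6. In all other cells they were at 110 and 63.2 CPM and at 79.3 and 39.2, so both were above the other cells under combo alone, and the rule for named genes took them through that library. The ratio of Hist1h2ae was 2.92 in pDC, 2.36 in cDC1 (1.89 to 2.95) and 0.182 in cDC2. The 5 highest members held 72.0% of Hist1h2ae UMIs and 79.2% of Ube2c UMIs under combo. With at most 4000 genes and 10% mitochondrial UMIs per cell, the log2 ratios were 0.18 and 0.35 in place of 1.55 and 1.33. Pclaf, a replication gene, read the other way, at 84.9 and 36.4 CPM in pDC, with a ratio of 0.464 in all other cells.

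**Figure D5:**
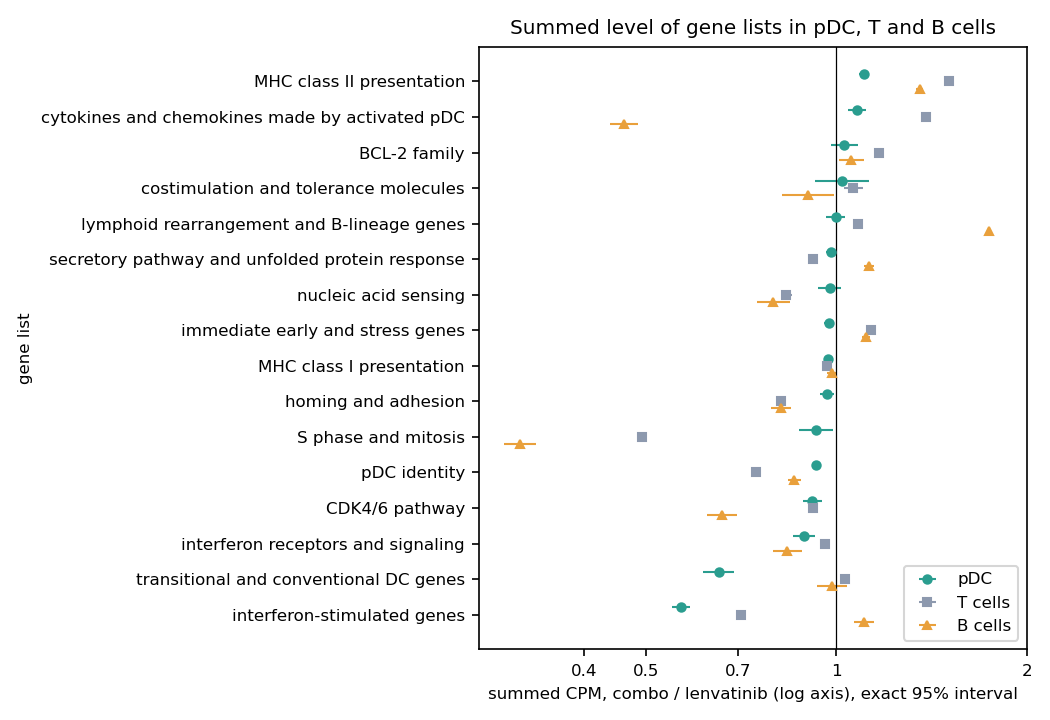
Ratio of summed CPM, combo over lenvatinib, of 16 gene lists (rows) in pDC, T and B cells, on a log axis with exact 95% intervals. Interferon-stimulated genes lie furthest to the left in pDC, while the S phase and mitosis list is near 1 in pDC and below 0.5 in T and B cells.

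Targets of lenvatinib were low. The 10 receptor genes summed to 75.04 CPM under lenvatinib and 51.9 under combo, and none reached 50 CPM. Kdr, which encodes VEGFR2, had 59 UMIs in 34 members under lenvatinib (10.8%) and 11 UMIs in 5 members under combo (1.61%), with 0.639 and 0.138 CPM in all other cells. Fgfr1 was at 43.8 and 42.4 CPM, against 2.72 and 4.56 in all other cells. The 20 immediate early and stress genes had a ratio of 0.973 and the 14 BCL-2 family genes 1.03. Of their 15 and 4 readable genes, 0 were 2-fold apart, against 1.5% of all readable genes, and with so few genes 0 is near that share.

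Members varied among themselves, in some ways alike in both libraries and in others not. Splits were made among members with few NK genes, as a description over cells of each library. A Cd4 UMI was present in 80 of 286 such members under lenvatinib (28.0%) and in 120 of 303 under combo (39.6%). Members with Cd4 had more Klk1 (967 against 317 CPM under lenvatinib, 1204 against 547 under combo), more Ccr9 (1669 against 934, and 1470 against 837) and more H2-Aa (1494 against 987, and 1593 against 1023). Their median depth was 8762 against 8474 UMIs under lenvatinib and 10135 against 10608 under combo. Ly6c2 was lower with Cd4 under lenvatinib (1422 against 2448 CPM) and equal under combo (938 against 937).

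Among members with few NK genes, 116 under lenvatinib and 77 under combo had a Clec9a UMI. They had less Ly6d (1575 against 2372 CPM, and 1970 against 3091) and more Ly6a (962 against 663, and 446 against 230). They were also deeper, with a median of 9709 against 7798 UMIs and 11936 against 9937. No Ccr9 UMI was present in 33 members with few NK genes under lenvatinib and in 13 under combo. Their median depth was 8798 against 8615 UMIs in members with Ccr9, and 13247 against 10371. Without a Ccr9 UMI, Siglech was at 609 and 345 CPM, against 2083 and 1657 in members with Ccr9. Cox6a2 was at 376 and 290 against 1223 and 1327, and Klf4 was at 339 and 369 against 183 and 82.5. H2-Aa turned between the libraries, at 1693 CPM without Ccr9 against 1055 with it under lenvatinib, and 375 against 1278 under combo. It turned also between members with and without Clec9a (1018 against 1232, and 1354 against 1185) and Ly6a (1096 against 1293, and 1415 against 1003).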

How the data were processed

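Sorted CD45+ cells of mouse liver tumors were measured in 2 scRNA libraries (10x 3′ v3). The values deposited are UMI counts for every gene in every barcode, without normalization, from reads mapped to mm10. Their processing notes name Cell Ranger 5.0.1, and the matrix header names 6.0.1. The lenvatinib library held 14509 barcodes and 98107503 UMIs, and the combo library 11989 barcodes and 93583402 UMIs. The cell filter removed 308 and 376 barcodes.

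Groups were taken from the labels. Counts were summed over the members of each library and scaled to their total (CPM), with exact Poisson intervals for levels and exact conditional binomial intervals for ratios (scipy 1.17.1, numpy 2.4.6, Python 3.11.15, 95%). There was 1 library per group, so no test was made. Fold changes of 2 or more were counted among genes with a mean of 50 CPM and 20 UMIs. Thinned shares come from cells reduced at random to 2000 UMIs, which dropped cells with fewer (13 and 0 pDC). Doublets were called with Scrublet (scanpy 1.11.5, expected 6%). The other gates required 0 Siglech UMIs, with Xcr1 and Clec9a together at least 2 UMIs for cDC1 (62 and 51 cells), Cd209a at least 2 for cDC2 (62 and 32), Cd79a at least 2 for B cells (590 and 647) and Cd3 genes together at least 2 for T cells (7206 and 5507). The 30 gene lists are named in the report, and the members and lists were chosen with earlier results of these data known. Genes named outside the lists were the 25 most enriched in pDC, the 12 furthest from equality in each direction among genes at least as high in pDC as in other cells of the library where they are higher (a filter that uses the compared values), and the 5 furthest in each direction among all. Splits by Cd4, Clec9a, Ly6a and Ccr9, and the genes Gm42418 and Pclaf, were chosen after values were seen. Coordinates are from GENCODE vM21, and promoters from RefSeq, which holds no entry used here for Ly6a, Ly6d and Ifi27l2a. The steps were tested on simulated data. Alternatives covered the Siglech minimum, the cell filter, doublets, a gate without Siglech, the scaling, the filter on genes and the denominator.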

Additional observations from a re-analysis of the deposited data

Results flagged for a closer look

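In each result here, the ratio of combo to lenvatinib in pDC lay on the opposite side of 1 from that in another cell gate, with both counting intervals clear of 1. With 1 library per group, none of these differences was tested. Ly6a had a ratio of 0.374 in pDC, 1.92 in B cells and 1.15 in T cells, but 0.251 in cDC1 and 0.567 in cDC2, and Ly6c2 one of 0.468 in pDC and 1.31 in B cells. In cDC1 and cDC2, Ly6c2 was lower as in pDC (0.407 and 0.347). The interferon-stimulated genes summed to a ratio of 0.569 in pDC and 1.11 in B cells, but without Ly6a and Ifi27l2a to 0.739 and 0.847, on the same side of 1. Hist1h2ae had a ratio of 2.92 in pDC, 0.182 in cDC2, 0.280 in B cells and 0.448 in T cells, but 2.36 in cDC1. Ube2c had one of 2.52 in pDC, 0.790 in cDC1, 0.333 in B cells and 0.357 in T cells, and H2afx one of 1.77 in pDC, 0.186 in cDC2, 0.583 in B cells and 0.659 in T cells. Like Hist1h2ae and Ube2c, H2afx was above the other cells under combo alone (57.9 and 102 CPM in pDC, 95.3 and 62.5 in all other cells). The rule for named genes took these genes through that library, which sets their ratio in pDC above that in all other cells. No conclusion is drawn from these contrasts. The log2 ratio of H2afx, 0.82, was 0.30 with the gate without Siglech and 0.36 in members with few S100a8 and S100a9 UMIs. With the gate without Siglech, Hist1h2ae was at 0.06 in place of 1.55 and Ube2c at 0.64 in place of 1.33. Cd38 had a ratio of 1.89 in pDC and 0.806 in B cells, but 2.52 in cDC1 (0.994 to 7.19) and 2.76 in cDC2 (1.06 to 7.69). The cytokine and chemokine list had a ratio of 1.08 in pDC, 0.628 in cDC1 and 0.462 in B cells, but 1.85 in cDC2 and 1.39 in T cells, and the interferon receptor and signaling list one of 0.889 in pDC and 1.09 in cDC1. The transitional and conventional dendritic cell list had a ratio of 0.652 in pDC and 1.03 in T cells. The immediate early and stress list had one of 0.973 in pDC, 1.11 in B cells and 1.13 in T cells, but 0.764 in cDC1 and 0.866 in cDC2.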

How the results depend on the processing

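No paired analysis was possible because each treatment has 1 library, and for the same reason no library could be left out. The pDC share had a ratio of 1.20, and of 0.838 without T and NK cells and 1.37 without neutrophils in the denominator. It was 1.29 and 1.31 with at least 3 and 5 Siglech UMIs, 1.30 in members with few NK genes, 1.07 in members with few S100a8 and S100a9 UMIs, and 1.12 after thinning. The 22 genes at least 2-fold higher became 14 with at most 4000 genes and 10% mitochondrial UMIs per cell, 11 in members with at most 20 UMIs of S100a8 and S100a9, 12 with a minimum of 100 CPM and 40 UMIs, and 469 with at least 10 UMIs and no CPM limit. The 25 genes at least 2-fold lower became 38 with the gate without Siglech, 10 with the minimum of 100 CPM and 605 with no CPM limit. The ratio of interferon-stimulated genes, 0.569, was 0.544 with at least 5 Siglech UMIs, 0.616 with the gate without Siglech, 0.591 with median-of-ratios scaling, and 0.739 without Ly6a and Ifi27l2a (chosen after seeing the data). The 3 of them at least 2-fold lower became 2 with the gate without Siglech, where Ifi44 had a log2 ratio of -0.96. They were also 2 with at most 4000 genes and 10% mitochondrial UMIs, and with the minimum of 100 CPM. They were 4 with at least 5 Siglech UMIs, as a mean over cells and in members with few S100a8 and S100a9 UMIs, and 6 with no CPM limit. The MHC class II ratio, 1.11, was 1.19 with at least 3 and 1.24 with at least 5 Siglech UMIs, 1.13 with no cell filter, 1.08 without doublets, 1.17 with the gate without Siglech, 1.14 with mitochondrial, ribosomal and hemoglobin genes out of the total, 1.15 with median-of-ratios scaling, 1.13 as a mean over cells, 1.15 in members with few S100a8 and S100a9 UMIs, and 1.06 in members with few NK genes (chosen after seeing the data). Irf8 had a log2 ratio of -0.12, and of 0.0047 in members with few S100a8 and S100a9 UMIs. The causes were not tested. Among named genes, 347 values under the listed alternatives stayed within the counting interval of the reported value and 92 lay outside it. Irf8 was the 1 that turned although the interval of its reported value was clear of equality. Its turned value, a log2 ratio of 0.0047, was itself close to equality. Hist1h2ae had a log2 ratio of 1.55, and of 0.06 with the gate without Siglech. Depth limits rare transcripts: Tlr9 had 20 and 19 UMIs. Gm42418, which overlaps ribosomal RNA, was at 14522 and 7035 CPM in pDC and had a ratio of 0.795 in other cells.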
